A study of Mus musculus with 6 samples.

Results

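The imprinted growth network genes examined here are Dlk1, Meg3, Rian, H19, Peg3, Mest, Plagl1, Grb10 and Ndn. They were chosen by name, with earlier results of these data known. In the deposited table of gene counts, 9 of 9 were found among its 49492 gene symbols. All 9 also passed the filter on low counts that left 19284 genes for testing. RNA had been extracted from palatal shelves, the paired outgrowths that form the roof of the mouth, of C57BL mouse embryos at E14.5 (days of gestation), and its poly(A) fraction was sequenced. The control group of 3 libraries was PRMT1 fl/fl, with loxP sites on both copies of Prmt1, which encodes the enzyme that places most asymmetric dimethyl marks on arginines. The deletion group of 3 libraries was Wnt1-Cre; PRMT1 fl/fl. Both groups therefore carried the floxed alleles, and only the second carried the recombinase. Wnt1-Cre acts in neural crest cells, the source of most of the palatal mesenchyme, while palatal epithelium, skeletal muscle, blood and vessels have other origins and keep Prmt1. No library carried Cre without the floxed alleles, so an effect of Cre cannot be told apart from an effect of the deletion. Whether the libraries of a group are from different embryos is not labelled. The controls were not all of the same sex (below), so they came from more than a single embryo. Each p-value reflects variation among the libraries, part of which may be technical.

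An imprinted gene is transcribed mainly from the copy inherited from a single parent, and which copy is active is set by DNA methylation laid down in the germ line and kept after fertilization by factors such as ZFP57. Many imprinted genes are abundant in embryonic mesenchyme and muscle precursors and decline after birth, and many of the paternally expressed ones favour growth while many of the maternally expressed ones restrain it. A group of them is known to be co-expressed in growing tissues as the imprinted gene network, with the transcription factor PLAGL1 (ZAC1) among its regulators. Of the genes examined, Dlk1, Peg3, Mest, Plagl1 and Ndn are expressed from the paternal copy, and Meg3, Rian, H19 and, outside neurons, Grb10 from the maternal copy. The counts do not separate the parental copies, so the values below are totals over both.

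Several of these genes also carry microRNAs, which are shown as a description of the host genes. RefSeq (GRCm38.p6) places 7 microRNA genes with 13 mature sequences inside 4 of the members on the same strand: 2 genes in Meg3, 3 in Rian, 1 in H19 and 1 in Mest. Not all 13 are printed below. In the sequences shown, capitals mark the seed, bases 2 to 8 from the 5′ end, which pairs with target messages. miR-675 lies in an exon of H19 on the minus strand (miR-675-5p at chr7:142577112-142577133). miR-335 lies in an intron of Mest (miR-335-5p at chr6:30741314-30741336, plus strand). miR-770 lies in an exon of Meg3 (miR-770-5p at chr12:109563710-109563731, plus strand), as does miR-1906 (chr12:109544588-109544609). miR-370 lies in an intron of Rian (miR-370-3p at chr12:109618305-109618326, plus strand).
miR-675-5p: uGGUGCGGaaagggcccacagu
miR-675-3p: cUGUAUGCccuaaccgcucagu
miR-335-5p: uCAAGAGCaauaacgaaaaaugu
miR-335-3p: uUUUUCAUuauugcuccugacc
miR-770-5p: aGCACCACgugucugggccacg
miR-770-3p: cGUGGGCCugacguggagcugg
miR-1906: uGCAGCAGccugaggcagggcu
miR-370-3p: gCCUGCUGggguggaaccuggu
The 13 mature sequences had 13 distinct seeds, so no pair of them shared one. The table holds rows for all 7 hairpins, of which 6 were at 0 in every library and Mir1188, in Rian, had 1 count in all. A poly(A) library does not measure mature microRNAs, and the host values below say nothing of their levels.

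Library totals were 45613056 to 50022829 estimated counts in the controls and 44919889 to 49875717 in the deletion group. Each library is called by the number its column carries: 212, 213 and 220 are controls, and 208, 211 and 221 are deletion libraries. Prmt1 itself was at 251.3 ± 5.95 CPM (counts scaled to library size, SD, n = 3) in the controls and 207.9 ± 8.47 CPM (n = 3) in the deletion libraries, lower in each of the latter (log2 fold change -0.27, edgeR adjusted p = 0.0113). That call was lost without 213, 208 or 211 (edgeR adjusted p of 0.0674, 0.0638 and 0.0567), with embryo sex as a covariate (-0.24, 0.177) and without both 212 and 213 (-0.24, 0.292). The libraries differed in sex: Xist was at 15.6 and 16.0 CPM in controls 212 and 213 and at 3374 to 4451 CPM in the other 4. Control 220 was thus the only control of the same sex as the deletion libraries. Libraries 220 and 221 also stood apart on the second principal component, which held 21.1% of the variance. Values against control 220 alone (without 212 and 213) are given for the members and for the other imprinted genes and fat regulators whose calls they end, and values with 220 and 221 as a covariate where they change the call of a member. Both settings were chosen after seeing the data. The first sets a single control against the 3 deletion libraries and takes its spread from them. In it the log2 fold changes were 0.45 for Meg3 (edgeR adjusted p = 0.487), 0.23 for H19 (0.336) and 0.14 for Peg3 (0.746), and the values of the other members stand beside their levels.

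The members were among the most abundant transcripts of the tissue. H19 ranked 2 of the 19284 tested genes by mean CPM, Grb10 25, Mest 32, Peg3 37, Meg3 51, Plagl1 61, Rian 84, Dlk1 109 and Ndn 948. Together they held 1.28% to 1.497% of counts in the control libraries and 1.40% to 1.59% in the deletion libraries. H19 alone took 0.579% to 0.743%. Because a long transcript yields more fragments, levels are compared between genes only as CPM per kilobase of exon, from the union of annotated exons. On that scale H19 stood at 2632 ± 330 in the controls (SD, n = 3). Mest was the next, at 312.7 ± 13.9, followed by Grb10 at 163.6 ± 3.94. Plagl1, at 120.8 ± 7.99, and Dlk1, at 113.1 ± 16.9, had overlapping ranges over the controls and cannot be ordered. Peg3 came below them at 83.7 ± 3.38. Meg3, at 50.3 ± 3.32, and Ndn, at 49.2 ± 2.18, overlapped as well, and Rian was the lowest at 40.6 ± 1.61. All other neighbours in this order had ranges that did not overlap. The union of exons is the same for every library and takes no account of which isoforms are used, so the order between genes rests on the annotation.

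The comparison shows which of these genes differed between the deletion and control libraries. A difference cannot be assigned to the deletion of Prmt1 alone. Cre was present only in the deletion group, and sex and the globin ratio were unevenly spread over the groups. All 9 log2 fold changes, deletion minus control, lay above 0, from 0.05 for Plagl1 to 0.34 for Meg3, with a median of 0.21. Over all tested genes the median was -0.00013 and 50% lay above 0, with the middle of the distribution (lower to upper quartile) between -0.15 and 0.13. A single member, Mest, passed the threshold of an adjusted p under 0.05 (edgeR, Benjamini-Hochberg over all tested genes), and it rose. Of all tested genes 7.01% passed, 3.65% higher and 3.37% lower, so 1 call among 9 genes is no result about the members as a group. Without adjustment 6 of 9 members had an edgeR p under 0.05 (Mest, Ndn, Rian, Meg3, Grb10 and Peg3), against 22.5% of all tested genes. In 3 members (Mest, Grb10 and Ndn) every deletion library lay above every control, an arrangement that 14.1% of tested genes showed, and in the other 6 the groups overlapped. The members were chosen with earlier results of these data known, and the shares over all tested genes take no account of abundance. Nor are the members independent, since Dlk1, Meg3 and Rian share a domain. Setting their counts beside those shares is therefore a description and no test of the group. In bulk tissue, more RNA per cell and more of the cells that express a gene cannot be told apart.

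**Figure D1:**
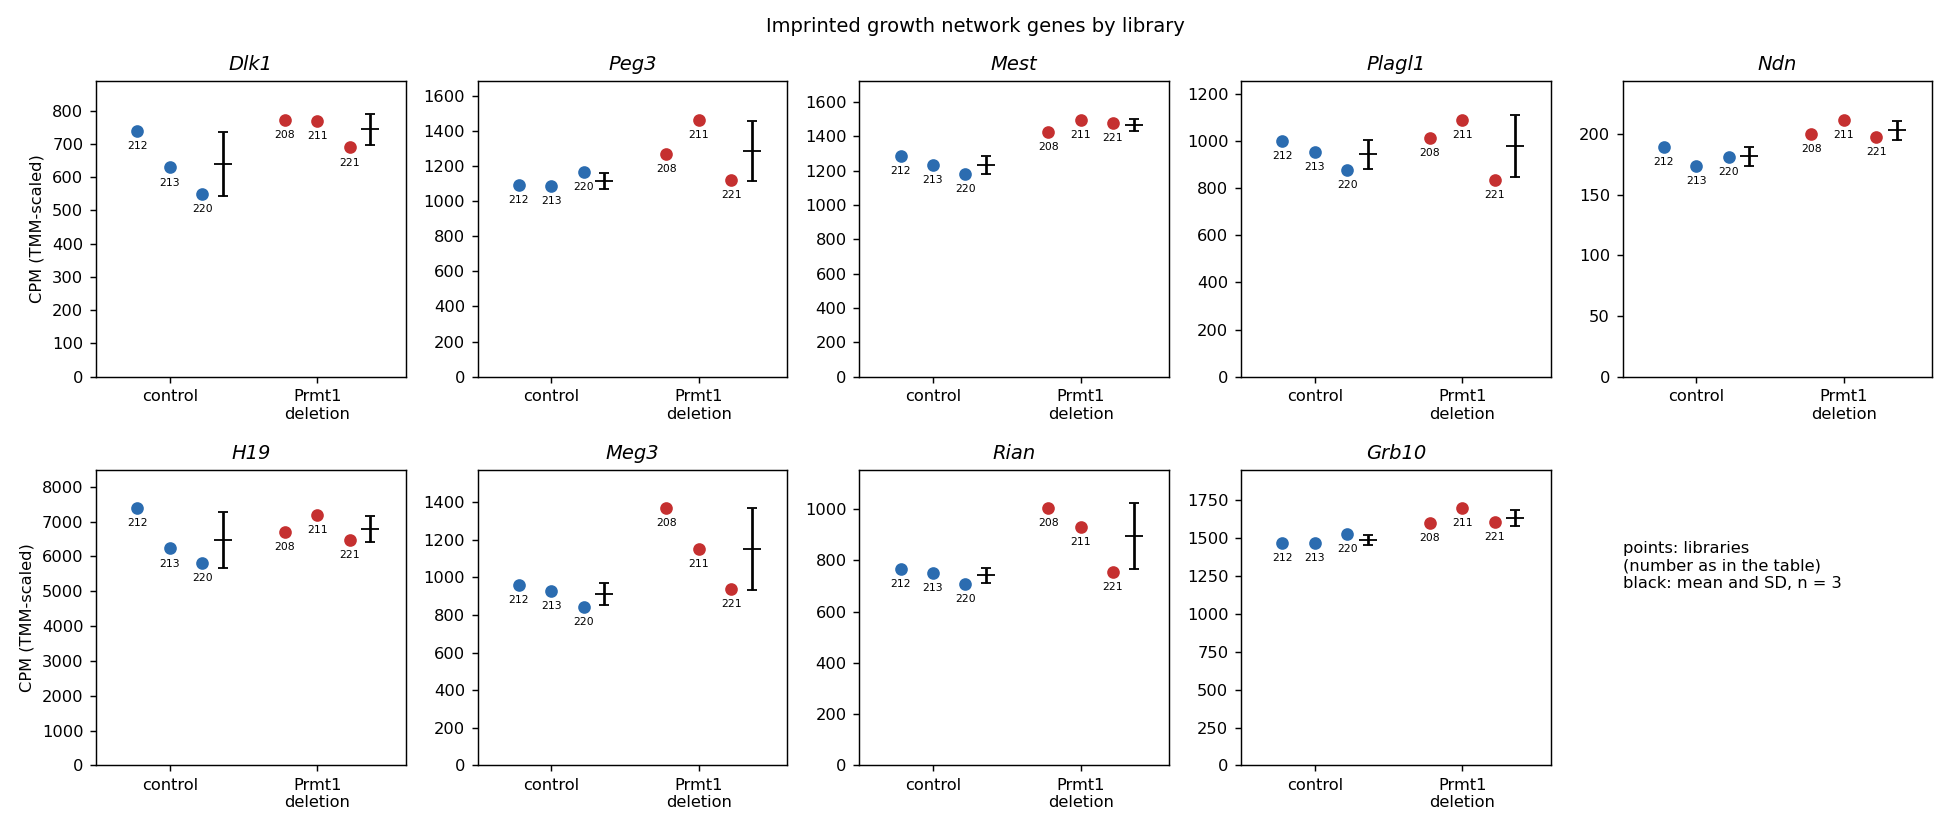
CPM of each of the 9 genes (y axis, TMM-scaled, from 0) in the 3 control (blue) and 3 deletion (red) libraries, with each library's number and, in black, the mean and SD of its group (n = 3). Mest, Grb10 and Ndn have every deletion library above every control, and the other 6 panels overlap.

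Dlk1 encodes a transmembrane protein related to the Notch ligands that holds back the differentiation of fat and other mesenchymal precursors. It lies at chr12:109452823-109463336 on the plus strand (mm10, ENSMUSG00000040856) and is the paternally expressed gene at the start of the Dlk1-Dio3 domain. Dlk1 was at 740, 629 and 550 CPM in controls 212, 213 and 220 and at 773, 769 and 689 CPM in deletion libraries 208, 211 and 221. The controls spread widely, and 212 exceeded 221, so the groups overlapped. The means were 639.9 ± 95.6 and 743.8 ± 47.3 CPM (SD, n = 3), and the log2 fold change was 0.22 ± 0.10 (SE, 95% interval -0.01 to 0.44, edgeR adjusted p = 0.242). Control 212 decided that call: without it the log2 fold change was 0.34 and passed (edgeR adjusted p = 0.0425). Against control 220 alone, matched in sex and within the deletion range of the globin ratio, it was 0.44.

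Meg3 is the long non-coding RNA transcribed from the maternal copy of the same domain, and its promoter region is part of the domain's methylation control. It lies at chr12:109541001-109571726 on the plus strand (ENSMUSG00000021268), 88.18 kb beyond the start of Dlk1. Meg3 was at 959, 928 and 843 CPM in controls 212, 213 and 220 and at 1366, 1148 and 936 CPM in deletion libraries 208, 211 and 221. Deletion library 208 was far above all controls, whereas 221 was within their range, which gave Meg3 the widest range of the 9 genes (0.70 on the log2 scale). The means were 910.0 ± 59.998 and 1150 ± 215 CPM (SD, n = 3), with a log2 fold change of 0.34 ± 0.13 (SE, 95% interval 0.03 to 0.64, edgeR adjusted p = 0.179). Meg3 passed with the DESeq2 Wald test (log2 fold change 0.34, adjusted p = 0.0182), with 220 and 221 as a covariate (0.33, edgeR adjusted p = 0.0288) and without 221 (0.47, edgeR adjusted p = 0.00830). It did not pass against control 220 alone (0.45, edgeR adjusted p = 0.487).

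Rian, a long maternal transcript that hosts small nucleolar RNAs and microRNAs, lies farther along at chr12:109603940-109661716 (plus strand, ENSMUSG00000097451). Rian was at 765, 750 and 708 CPM in controls 212, 213 and 220 and at 1002, 931 and 753 CPM in deletion libraries 208, 211 and 221. As for Meg3, libraries 208 and 211 lay above the controls and 221 among them. The means were 740.9 ± 29.4 and 895.6 ± 128 CPM (SD, n = 3), with a log2 fold change of 0.27 ± 0.09 (SE, 95% interval 0.06 to 0.48, edgeR adjusted p = 0.118). Rian also passed with the DESeq2 Wald test (0.27, adjusted p = 0.0258), with 220 and 221 as a covariate (0.26, edgeR adjusted p = 0.0312) and without 221 (0.38, edgeR adjusted p = 0.00390). Against control 220 alone it was 0.34 (edgeR adjusted p = 0.432).

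The ratio of Rian to Meg3, both from the maternal copy, was 0.797, 0.808 and 0.840 in the controls and 0.734, 0.811 and 0.805 in the deletion libraries, in CPM. It overlapped between groups, and an exact permutation test over the 6 libraries gave p = 0.5 (two-sided, where 3 against 3 cannot go below 0.1). The ratio of maternal Meg3 to paternal Dlk1 was 1.30, 1.47 and 1.53 in the controls and 1.77, 1.49 and 1.36 in the deletion libraries (exact permutation p = 0.5). It varied as much within the deletion libraries as between the groups. These are 2 of 5 ratios computed, and the adjusted p was 0.5 for both and 0.167 for each of the other 3.

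The other genes of the domain include some that passed where its 3 members did not. Rtl1, a paternally expressed gene derived from a retrotransposon, rose from 18.97 ± 2.34 to 25.9 ± 3.41 CPM (SD, n = 3, log2 fold change 0.45, edgeR adjusted p = 0.0417). Mirg, the maternal microRNA host at the far end of the cluster of non-coding RNAs, rose from 35.96 ± 4.01 to 52.7 ± 7.09 CPM (0.55, edgeR adjusted p = 0.0160). Mirg was at 39.5, 36.8 and 31.6 CPM in the controls against 60.5, 51.0 and 46.7 CPM in the deletion group, with every deletion library above every control, unlike Meg3 and Rian. The Rtl1 call was lost without 213, 220, 208 or 211 (edgeR adjusted p up to 0.162), with limma voom and with robust=FALSE, and the Mirg call was lost without 213 (edgeR adjusted p = 0.0775). Neither passed against control 220 alone, with Rtl1 at 0.65 (edgeR adjusted p = 0.155) and Mirg at 0.74 (0.0943). Begain, a gene of synaptic scaffolds that lies before Dlk1 on the chromosome, rose from 33.7 ± 0.467 to 51.0 ± 5.19 CPM (0.60, edgeR adjusted p = 0.0017), and passed with each library left out in turn but not against control 220 alone (0.58, edgeR adjusted p = 0.115). Dio3, the deiodinase gene at the far end of the domain, 826.25 kb from Dlk1, was at 40.1 ± 6.13 and 38.5 ± 1.92 CPM (-0.06, edgeR adjusted p = 0.799), and its sign turned without 212 (0.043). Of 12 listed genes in and around the domain, all tested, 3 rose and 0 fell.

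H19, the abundant maternal non-coding RNA that shares enhancers with Igf2, lies at chr7:142575529-142578143 on the minus strand (ENSMUSG00000000031). H19 was at 7381, 6227 and 5814 CPM in controls 212, 213 and 220 and at 6713, 7192 and 6459 CPM in deletion libraries 208, 211 and 221. The highest and the lowest of the 6 values were both controls. The means were 6474 ± 812 and 6788 ± 372 CPM (SD, n = 3), with a log2 fold change of 0.07 ± 0.08 (SE, 95% interval -0.12 to 0.26, edgeR adjusted p = 0.702). Its sign turned without control 220 (-0.0032), and against 220 alone the value was 0.23 (edgeR adjusted p = 0.336).

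Igf2, the paternally expressed insulin-like growth factor 88.67 kb away, was at 3895, 3739 and 3451 CPM in the controls against 4060, 4406 and 4251 CPM in the deletion group. The groups did not overlap, and the log2 fold change of 0.20 did not pass (edgeR adjusted p = 0.0840), although it did with the DESeq2 Wald test (adjusted p = 0.0171). The ratio of Igf2 to H19 was 0.528, 0.600 and 0.594 in the controls and 0.605, 0.613 and 0.658 in the deletion libraries, also without overlap, and the exact permutation p was 0.1, the smallest possible (adjusted p = 0.167). Around them, Tnni2 and Tnnt3, troponin genes of fast skeletal muscle, had log2 fold changes of 0.95 and 0.96 (edgeR adjusted p = 0.0776 and 0.159) and passed without 221 (edgeR adjusted p = 0.00086 and 0.0249). By the DESeq2 Wald test with all 6 libraries Tnni2 passed (adjusted p = 0.00189) and Tnnt3 did not (0.0651). Tnni2 and Tnnt3 passed in 3 and 2 of 16 alternatives. Lsp1, an actin-binding protein of leukocytes and other cells whose gene lies between them, fell from 67.0 ± 4.91 to 41.3 ± 0.468 CPM (SD, n = 3, log2 fold change -0.70, edgeR adjusted p = 0.0003). Lsp1 also passed against control 220 alone (-0.58, edgeR adjusted p = 0.0320).

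Mest (also Peg1) encodes a hydrolase-like protein of the endoplasmic reticulum that is paternally expressed in mesoderm and known to mark growing mesenchyme. It lies at chr6:30723547-30748465 on the plus strand (ENSMUSG00000051855). Mest was at 1288, 1234 and 1178 CPM in controls 212, 213 and 220 and at 1425, 1498 and 1476 CPM in deletion libraries 208, 211 and 221. All 3 deletion libraries were above all 3 controls, and library 221, which was low for most of the other members, was not low here. The means were 1233.5 ± 54.8 and 1466 ± 37.3 CPM (SD, n = 3). The log2 fold change was 0.25 ± 0.06 (SE, 95% interval 0.12 to 0.38, edgeR adjusted p = 0.0255), a rise of 18.8% with an interval of 8.90% to 29.7%. Its size varied less than its call. With 1 library left out it ranged from 0.22 to 0.28, and it was no longer past the threshold without 213, 208 or 211 (edgeR adjusted p of 0.117, 0.0662 and 0.130). Against control 220 alone it was 0.32 (edgeR adjusted p = 0.174).

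Copg2, a coat protein gene transcribed from the opposite strand, overlaps the end of Mest and shares 912 exonic bases with it. Copg2 was at 74.99, 70.2 and 74.2 CPM in the controls against 61.8, 64.6 and 65.8 CPM in the deletion group, with the groups apart (log2 fold change -0.19, edgeR adjusted p = 0.0573). It passed with upper-quartile factors (-0.20, edgeR adjusted p = 0.0496), with the DESeq2 Wald test (-0.19, adjusted p = 0.0363), with 220 and 221 as a covariate (-0.19, edgeR adjusted p = 0.0457) and without 221 (-0.21, edgeR adjusted p = 0.0393). The ratio of Mest to Copg2 was 17.2, 17.6 and 15.9 in the controls and 23.0, 23.2 and 22.4 in the deletion libraries, without overlap (exact permutation p = 0.1, the smallest possible, adjusted p = 0.167). The strand setting of the counting is not given in the sources used here, so reads from the shared bases cannot be assigned to either gene with certainty. The CPM of Mest were 15.9 to 23.2 times those of Copg2.

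The Mest promoter is shown because Mest was the member that rose and because imprinted control regions carry the hexamer TGCCGC, which ZFP57 binds when it is methylated. RefSeq (GRCm38.p6) gives the 250 bases upstream of its main start at chr6:30737800-30738049, plus strand, where capitals mark the hexamer read from the other strand.
Mest promoter: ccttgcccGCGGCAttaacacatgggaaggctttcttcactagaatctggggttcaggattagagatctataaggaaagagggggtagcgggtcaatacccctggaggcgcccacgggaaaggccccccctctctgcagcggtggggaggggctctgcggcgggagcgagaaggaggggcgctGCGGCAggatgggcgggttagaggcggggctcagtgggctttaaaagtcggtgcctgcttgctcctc
This window held 14 CG dinucleotides, against a median of 6 over 32851 promoter windows of the same length. Of those windows 70.6% held fewer than 14. The Mest window held 2 matches to TGCCGC on either strand, a hexamer that 8.68% of all the windows held. That share was not matched for CG content. A second Mest start, at chr6:30733256-30733505, had 7 CG and 0 matches. Promoter windows were found for 8 of 9 members. Plagl1 (chr10:13090582-13090831) had 19 CG and 1 match, and Meg3 (chr12:109540746-109540995) had 10 CG and 1 match. A second Meg3 window (chr12:109545148-109545397) had 0 CG and 0 matches. The windows of Dlk1, Rian, Peg3, Grb10 and Ndn had 0 matches. A match describes the letters of the window only, and neither methylation nor binding was measured.

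Peg3 encodes a large zinc finger protein, paternally expressed, that is known to act in cell survival and in the control of other imprinted genes. It lies at chr7:6703892-6730431 on the minus strand (ENSMUSG00000002265). Peg3 was at 1091, 1087 and 1167 CPM in controls 212, 213 and 220 and at 1270, 1464 and 1122 CPM in deletion libraries 208, 211 and 221. Libraries 208 and 211 were above the controls and 221 was among them. The means were 1114.7 ± 45.002 and 1285 ± 172 CPM (SD, n = 3), with a log2 fold change of 0.21 ± 0.09 (SE, 95% interval 0.01 to 0.40, edgeR adjusted p = 0.196). Without 221 it was 0.29 and passed (edgeR adjusted p = 0.0293), and against control 220 alone it was 0.14 (edgeR adjusted p = 0.746).

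Peg3 shares a domain with Usp29, which starts 0.15 kb away on the opposite strand, and with the maternally expressed zinc finger gene Zim1. Zim1 rose from 152.7 ± 6.08 to 192.4 ± 21.2 CPM (SD, n = 3, log2 fold change 0.33, edgeR adjusted p = 0.0259), and this call was lost without 213, 220, 208 or 211 (edgeR adjusted p up to 0.127) and against control 220 alone (0.38, edgeR adjusted p = 0.270). Usp29, a paternally expressed ubiquitin protease gene, was at 25.8, 21.6 and 23.8 CPM in the controls against 32.3, 33.7 and 25.1 CPM in the deletion group (0.36, edgeR adjusted p = 0.0886). Its value in 221 was within the control range, as for Peg3. It passed without 221 (0.47, edgeR adjusted p = 0.00829) and, with all 6 libraries, by the DESeq2 Wald test (0.35, adjusted p = 0.0318) and with no filter on low counts (0.36, edgeR adjusted p = 0.0324).

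Plagl1 encodes a zinc finger transcription factor that restrains the cell cycle and is known to regulate other imprinted genes. It lies at chr10:13060504-13131694 on the plus strand (ENSMUSG00000019817). Plagl1 was at 1001, 955 and 877 CPM in controls 212, 213 and 220 and at 1012, 1091 and 834 CPM in deletion libraries 208, 211 and 221. The lowest of the 6 values was a deletion library, 221. The means were 944.3 ± 62.5 and 979 ± 132 CPM (SD, n = 3), with a log2 fold change of 0.05 ± 0.09 (SE, 95% interval -0.16 to 0.26, edgeR adjusted p = 0.806), and its sign turned without 211 (-0.035). Against control 220 alone it was 0.16 (edgeR adjusted p = 0.718). This interval leaves room for a difference of either sign. Of the 3 other tested genes around Plagl1, 0 passed by edgeR, 0 had an unadjusted p under 0.05, and 0 were called by DESeq2 or limma voom.

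Grb10 encodes an adaptor that binds the insulin and IGF receptors and restrains their signal, and is known as a maternally expressed restraint on growth. It lies at chr11:11930508-12038683 on the minus strand (ENSMUSG00000020176). Grb10 was at 1466, 1467 and 1529 CPM in controls 212, 213 and 220 and at 1597, 1696 and 1604 CPM in deletion libraries 208, 211 and 221. All deletion libraries were above all controls, by a small margin for 220. The means were 1487 ± 35.8 and 1632 ± 55.4 CPM (SD, n = 3), with a log2 fold change of 0.13 ± 0.06 (SE, 95% interval 0.01 to 0.26, edgeR adjusted p = 0.179). It passed under none of the 17 alternatives, where it ranged from 0.09 to 0.15 (adjusted p of 0.0751 to 0.699). The log2 fold change against control 220 alone was 0.097. Its neighbour Cobl, a maternally expressed actin nucleator, rose from 21.8 ± 1.34 to 30.1 ± 2.83 CPM (SD, n = 3, 0.46, edgeR adjusted p = 0.0105). The Cobl call was narrowly lost without 213 (edgeR adjusted p = 0.0506) or 211 (0.0504), and was lost against control 220 alone (0.57, 0.143).

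Ndn encodes necdin, a MAGE family protein that is paternally expressed and known to hold back proliferation and to act in neurons and in muscle and fat precursors. It lies at chr7:62346569-62350262 on the plus strand (ENSMUSG00000033585). Ndn was at 189.7, 173.6 and 181.6 CPM in controls 212, 213 and 220 and at 200.3, 212.1 and 197.5 CPM in deletion libraries 208, 211 and 221. All deletion libraries were above all controls. The means were 181.6 ± 8.04 and 203.3 ± 7.73 CPM (SD, n = 3), with a log2 fold change of 0.16 ± 0.05 (SE, 95% interval 0.04 to 0.28, edgeR adjusted p = 0.103). It passed under none of the 17 alternatives, where it ranged from 0.13 to 0.20 (adjusted p of 0.0620 to 0.480). The log2 fold change against control 220 alone was 0.17.

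Magel2, a related MAGE gene 30.44 kb from Ndn that is also paternally expressed and regulates ubiquitin ligases in protein trafficking, rose more steeply. Magel2 was at 18.3, 17.4 and 19.7 CPM in the controls against 36.6, 32.9 and 26.1 CPM in the deletion group, with every deletion library above every control (log2 fold change 0.79 ± 0.11, SE, edgeR adjusted p = 0.0037). Magel2 was at 0.70 against control 220 alone and did not pass (edgeR adjusted p = 0.193). The ratio of Magel2 to Ndn was 0.0966, 0.100 and 0.108 in the controls and 0.183, 0.155 and 0.132 in the deletion libraries, without overlap (exact permutation p = 0.1, the smallest possible, adjusted p = 0.167). Of the 8 tested genes of the necdin and MAGE family, 1 rose, Magel2, and 0 fell, with a median log2 fold change of 0.07.

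**Figure D2:**
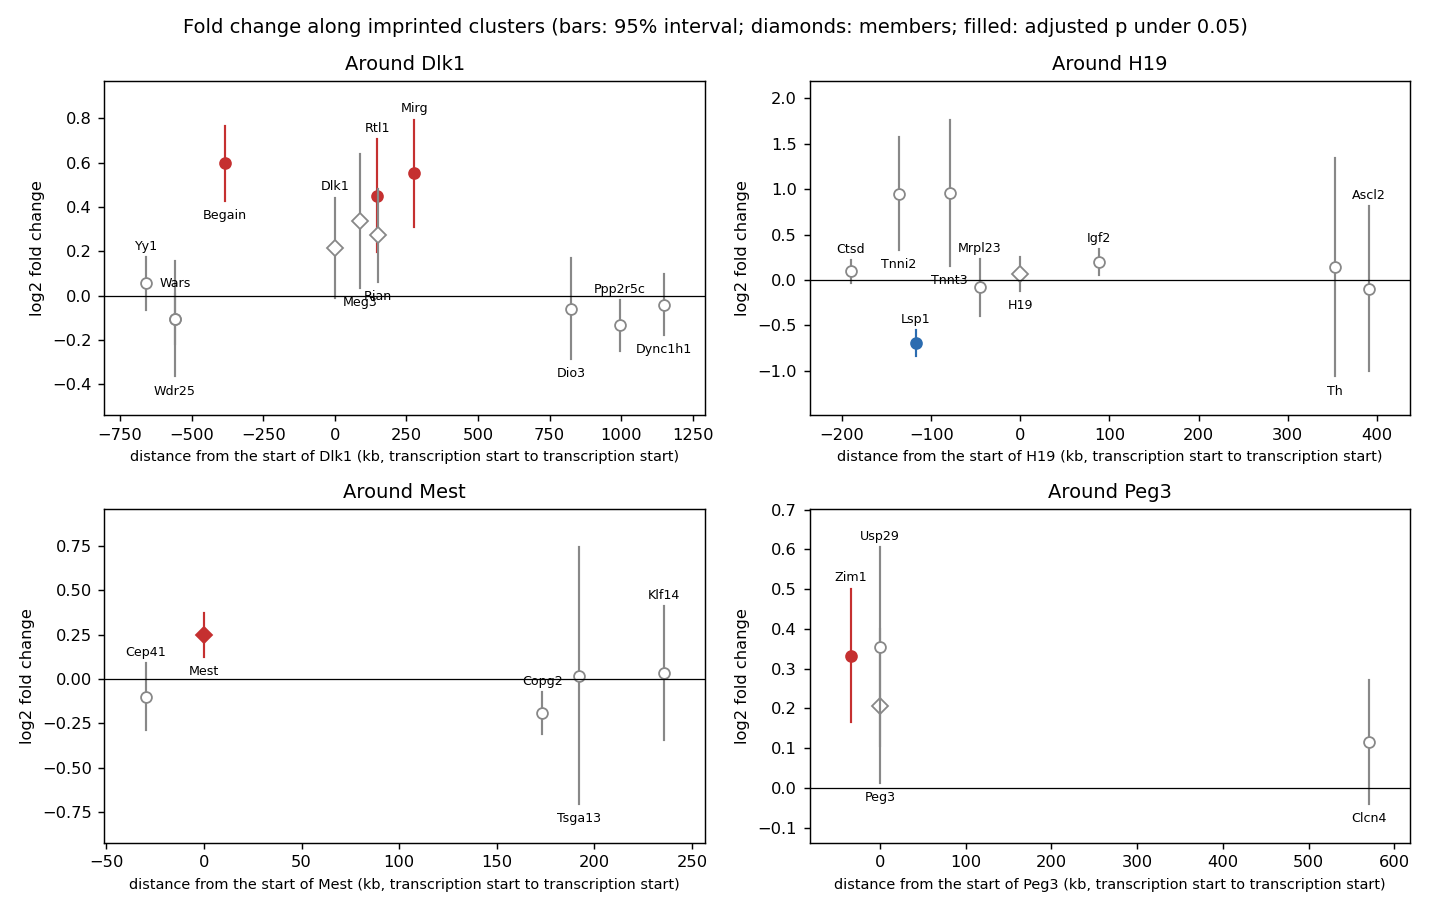
Log2 fold change, deletion minus control (y axis, bars are 95% intervals), of the members and of the tested genes around them, by distance in kilobases from the member's start (x axis), in panels for the domains of Dlk1, H19, Mest and Peg3. In the Dlk1 panel Begain, Mirg and Rtl1 passed the threshold and Dlk1, Meg3 and Rian, with smaller fold changes, did not.

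Some libraries were high or low for most members at once. Within the controls, 220 was the lowest for 6 of 9 members and 212 the highest for 7, against 36.5% and 35.7% of all tested genes. Within the deletion libraries, 221 was the lowest for 7 of 9 and 211 the highest for 6, against 38.2% and 30.1% of all tested genes. The median deviation of the members from their group's mean was -0.07 in 220, 0.06 in 212, -0.11 in 221 and 0.06 in 211 (log2 CPM), and that of all tested genes was within 0.01 of 0 in each library. Grb10 and Ndn varied least, with ranges over the 6 libraries of 0.21 and 0.29 on the log2 scale, against 0.34 to 0.70 for the other members.

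**Figure D3:**
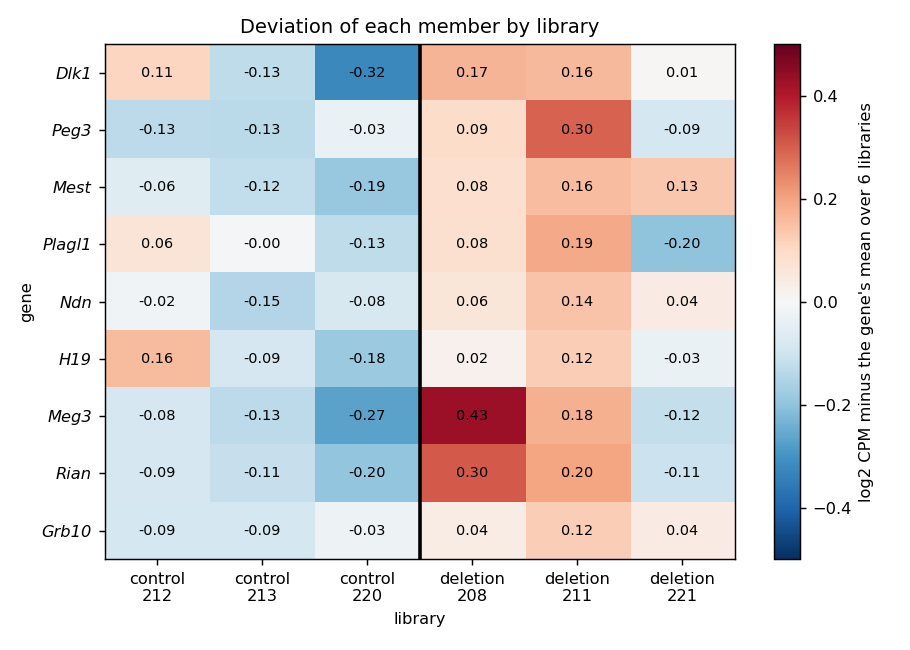
Deviation of each member's log2 CPM from its own mean over the 6 libraries (colour and printed value, blue below and red above), with control libraries left of the line and deletion libraries right. Meg3 reaches 0.43 in library 208 and Dlk1 falls to -0.32 in 220, and library 221 is below 208 and 211 for 7 of 9 genes.

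Other imprinted genes were read from a list of 46 that are not members, of which 44 were tested. Of these 8 rose and 1 fell, 18.2% higher against 3.65% of all tested genes, and in 16 every deletion library lay above every control (36.4%, against 14.1%). Their median log2 fold change was 0.12, and 29 of 44 lay above 0. The list was chosen with earlier results of these data known, and the shares over all tested genes take no account of abundance. Peg10, a paternally expressed gene of retrotransposon origin needed for the placenta, had the largest rise among those that passed. Peg10 was at 407, 388 and 461 CPM in the controls against 790, 830 and 644 CPM in the deletion group (log2 fold change 0.85 ± 0.10, SE, edgeR adjusted p = 0.0020). Nnat, which encodes the small membrane protein neuronatin and is paternally expressed, was at 264, 242 and 216 CPM in the controls against 398, 367 and 323 CPM in the deletion group (0.59 ± 0.09, SE, edgeR adjusted p = 0.0055). In Peg10 and Nnat the groups were well apart. Sfmbt2, a paternally expressed Polycomb protein gene, rose from 8.35 ± 1.10 to 11.9 ± 0.777 CPM (SD, n = 3, 0.51, edgeR adjusted p = 0.0309). The gene that fell was Trappc9, a subunit of a vesicle-tethering complex, from 42.0 ± 0.231 to 35.0 ± 1.05 CPM (SD, n = 3, -0.26, edgeR adjusted p = 0.0251). The remaining rises were Magel2, Mirg, Rtl1, Zim1 and Cobl, given above with their domains.

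The expressed copy of each gene is as listed and was not measured in this tissue. By expressed copy, and leaving the members out, 22 paternally expressed genes were tested, of which 5 rose and 0 fell (median log2 fold change 0.21, 15 above 0). Of 19 maternally expressed genes 3 rose and 1 fell (median 0.06, 12 above 0). The difference between these lists was not tested. Of the 13 tested genes that the list of the imprinted gene network holds beside the members, 2 rose (Peg10 and Nnat) and 0 fell, with a median of 0.20. Cdkn1c, the maternally expressed inhibitor of cyclin-dependent kinases, was at 1060 ± 102 and 1018 ± 86.3 CPM (SD, n = 3, -0.06, edgeR adjusted p = 0.743), and its sign turned without 212 (0.016) or 208 (0.0053) and against control 220 alone (0.082). Igf2r, the maternally expressed receptor that clears IGF2, was at 359.9 ± 8.20 and 375.8 ± 28.9 CPM (0.06, edgeR adjusted p = 0.623), and its sign turned without 211 (-0.0047). The differences of both genes were within the spread of the libraries.

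Peg10, Magel2 and Nnat passed with each single library left out in turn. Against control 220 alone the log2 fold changes were 0.71 for Peg10, 0.75 for Nnat, 0.36 for Sfmbt2 and -0.26 for Trappc9. The calls of these genes were lost there, in a fit with a single control where few of all tested genes passed. That loss is no result about imprinted genes. The calls of Sfmbt2 and Trappc9 were lost without 212, 213, 208 or 211 (edgeR adjusted p up to 0.117 and 0.114). With embryo sex as a covariate, which leaves control 220 to be compared with the deletion libraries, Nnat was the only call among the 44 (0.75, edgeR adjusted p = 0.0264), where 0.669% of all tested genes passed. Peg10 was then at 0.71 (edgeR adjusted p = 0.0654), Magel2 at 0.70 (0.117), Mirg at 0.74 (0.0583) and Begain at 0.57 (0.0637), each with the sign of the full comparison.

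**Figure D4:**
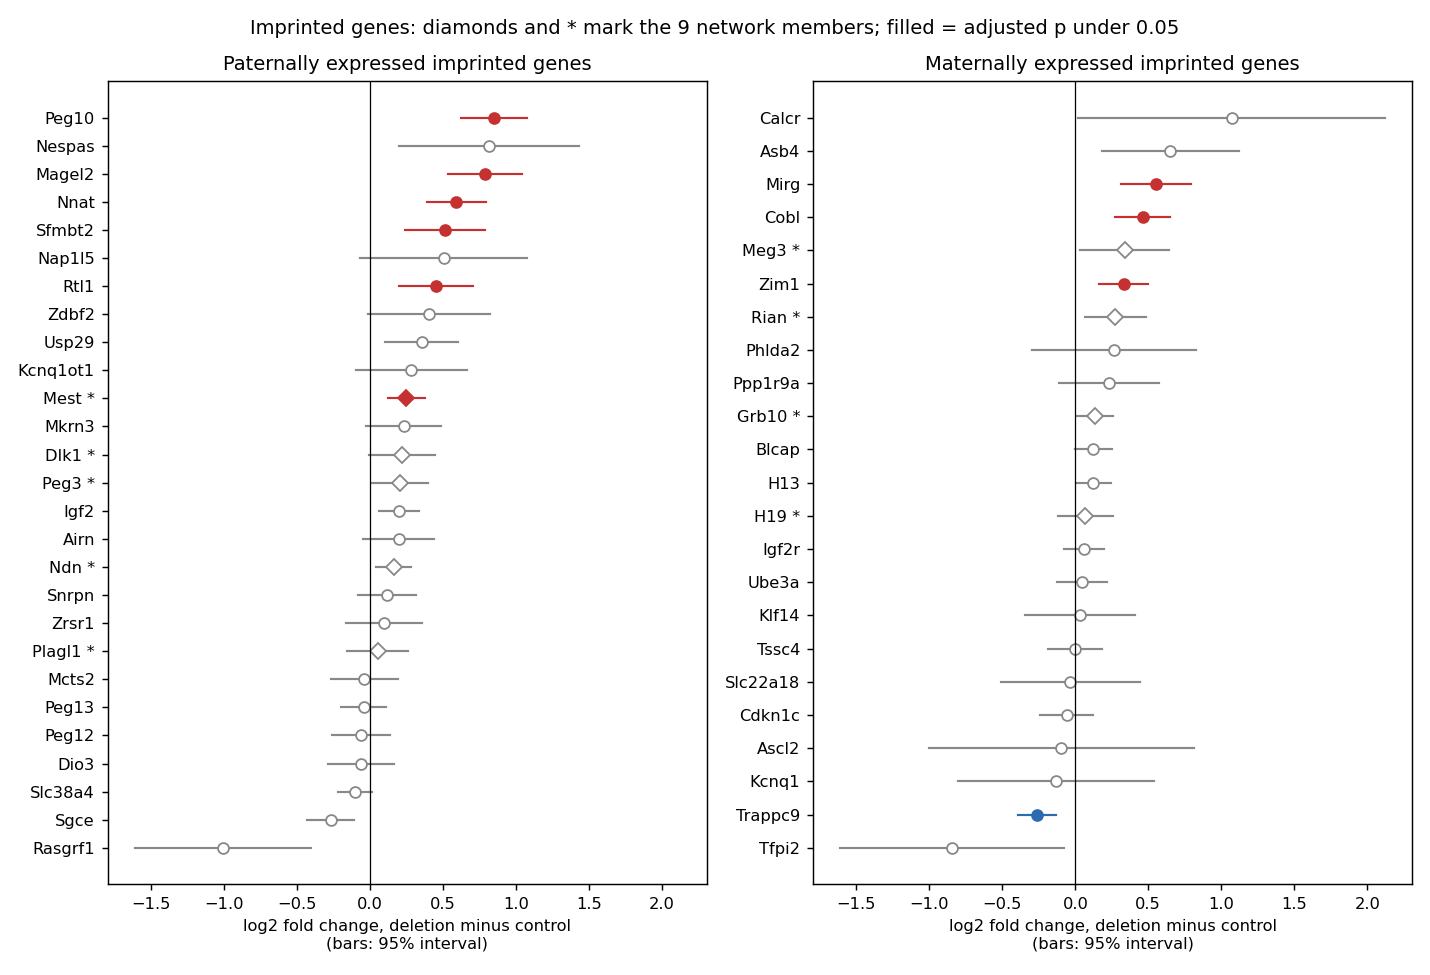
Log2 fold change, deletion minus control, with 95% intervals (x axis), of the tested imprinted genes (y axis, members and others), with those past the threshold of edgeR marked. The members lie between 0.05 and 0.34, and several other imprinted genes lie above them, among them Peg10, Magel2 and Nnat.

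The pathways that the members act in were read from further lists. Of 18 factors that set or keep imprints, 16 were tested and 0 passed by edgeR, with 3 at an unadjusted p under 0.05, 1 called higher by DESeq2 and 0 by limma voom (median 0.04). The smallest p-values belonged to Zfp57, the zinc finger protein that binds methylated imprints (0.20, edgeR adjusted p = 0.0661), and Tet3, an oxidase of methylated cytosine (0.21, edgeR adjusted p = 0.0939). Both passed by edgeR with no filter on low counts (adjusted p = 0.0288 and 0.0315), Zfp57 also without 211 (0.0436) and by the DESeq2 Wald test (0.0413), and Tet3 without 221 (0.0136). Of 16 genes of insulin and IGF signalling around Grb10, 0 passed by edgeR, with 3 at an unadjusted p under 0.05, 1 called higher by DESeq2 and 0 by limma voom (median 0.00). Among 10 tested regulators of fat differentiation, which DLK1 restrains, 1 rose and 2 fell. The unadjusted p was under 0.05 for 7 of them. DESeq2 called 1 higher and 4 lower, limma voom 1 higher and 1 lower, and edgeR with the sex covariate 1 higher and 0 lower. Ebf2, a transcription factor of mesenchymal and brown fat precursors, rose from 15.7 ± 2.54 to 45.4 ± 0.260 CPM (SD, n = 3, 1.53, edgeR adjusted p = 0.0001), and passed with each library left out and against control 220 alone (1.43, edgeR adjusted p = 0.00193). Pparg, the main regulator of fat cells, fell from 1.42 ± 0.179 to 0.567 ± 0.123 CPM (-1.32, edgeR adjusted p = 0.0243), and this call was lost without 212, 213, 208 or 211 (edgeR adjusted p up to 0.0975) and against control 220 alone (-1.14, edgeR adjusted p = 0.375). Cebpb, another regulator of fat cells, fell from 10.1 ± 2.00 to 6.67 ± 0.522 CPM (-0.60, edgeR adjusted p = 0.0380), and this call was lost without 212, 213, 208, 211 or 221 (edgeR adjusted p up to 0.188) and with limma voom. Against control 220 alone the value of Cebpb was -0.29.

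Markers of some of the cell types in the tissue differed between the groups, and those of others did not. Several imprinted genes are known to be abundant in some cells of the tissue. Of 26 skeletal muscle markers 14 rose and 0 fell (median log2 fold change 1.13), none was at 0, and their summed level was 730 to 786 CPM in the controls against 1236 to 2096 CPM in the deletion group. The unadjusted p was under 0.05 for 24 of them, DESeq2 called 22 higher and limma voom 20, and edgeR with the sex covariate called 6. Of 12 cartilage markers 6 rose and 0 fell, with sums of 471 to 648 and 879 to 1005 CPM (9 higher by DESeq2, 7 by limma voom, 4 with the sex covariate). Of 9 tested bone markers 0 rose and 2 fell, with sums of 1022 to 1447 and 268 to 481 CPM. The unadjusted p was under 0.05 for 8 of them, DESeq2 called 8 lower and limma voom 6, and edgeR with the sex covariate called 0. Of 12 epithelial markers 0 rose and 4 fell, with sums of 1402 to 1532 and 958 to 1214 CPM (5 lower by DESeq2, 5 by limma voom, 2 with the sex covariate). Of 10 neuronal markers 0 passed by edgeR, with 7 at an unadjusted p under 0.05, 5 called higher by DESeq2 and 2 by limma voom, and their sums were 64.1 to 80.5 and 102 to 195 CPM. Of 6 Schwann cell markers 1 rose, with sums of 72.2 to 77.4 and 83.5 to 113 CPM (3 higher by DESeq2, 1 by limma voom, 0 with the sex covariate). Of 13 palate mesenchyme markers, the defining genes of the dissected tissue, 1 rose and 1 fell, with sums of 2450 to 2598 and 2619 to 2693 CPM (2 higher and 1 lower by DESeq2, 1 and 1 by limma voom, 0 with the sex covariate). Markers of vessels (430 to 448 and 393 to 432 CPM), red cells (3681 to 4870 and 2134 to 4739 CPM) and macrophages (96.6 to 127 and 84.6 to 95.8 CPM) had 0 calls by edgeR, 5, 0 and 2 at an unadjusted p under 0.05, 1, 0 and 1 called lower by DESeq2 and none by limma voom. The part of these cell types in the values of the members was not tested. Leaving muscle and erythroid markers out before scaling alters only the scaling and leaves the members' own counts as they are. The members' median log2 fold change was then 0.21, as with those markers, which does not bear on the part of these cells.

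The number of members past the threshold moved with the setting, and so did the share of all tested genes. Mest alone passed with limma voom (6.07% of tested genes passed), with upper-quartile factors (7.3%) and without 220 (7.04%). Mest, Meg3 and Rian passed with the DESeq2 Wald test (11.5%) and with 220 and 221 as a covariate (9.39%). Without 212 Mest and Dlk1 passed (4.78%), and without 221 Mest, Meg3, Rian and Peg3 did (9.45%). No member passed without 213 (1.81%), without 208 (2.77%), without 211 (3.59%), without both 212 and 213 (0.435%) or with embryo sex as a covariate (0.669%).

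**Figure D5:**
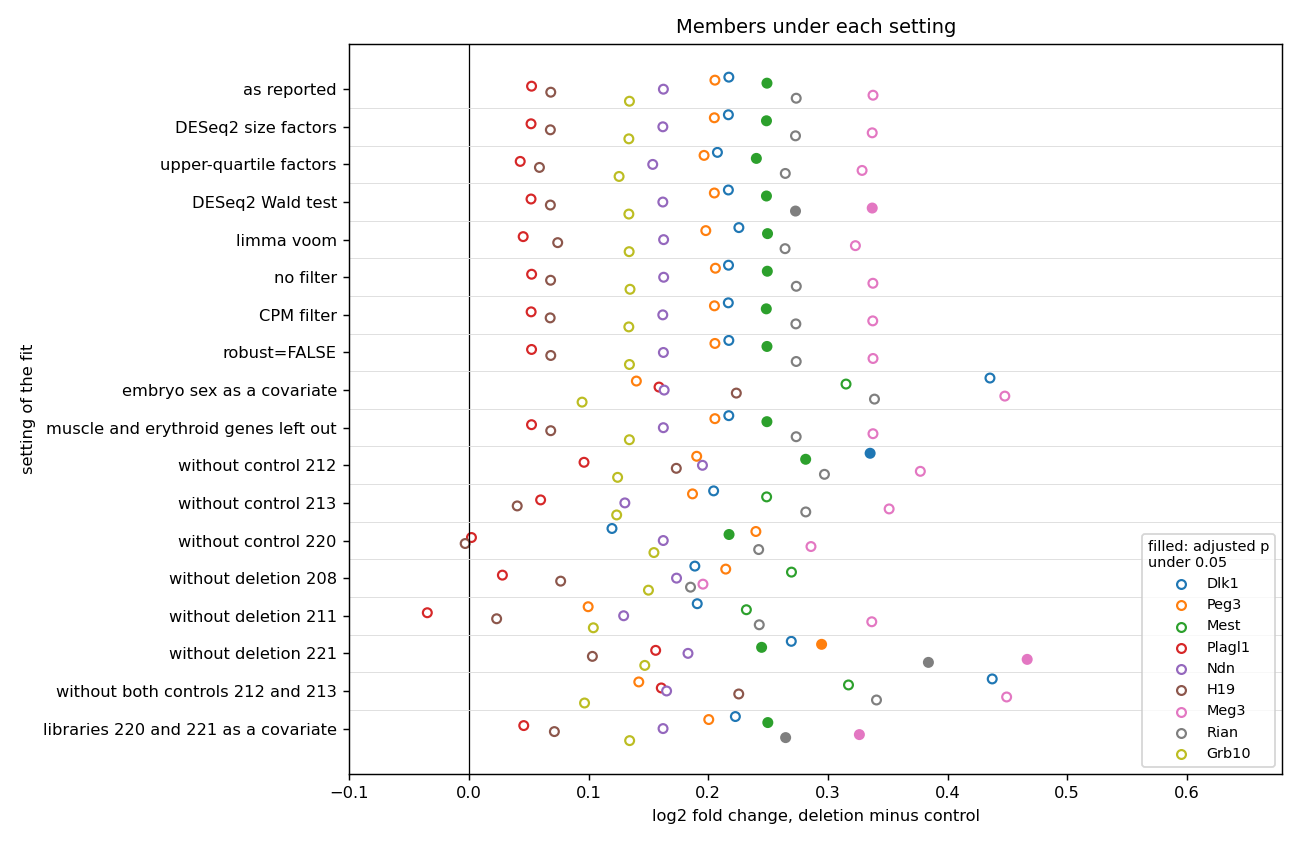
Log2 fold change of each member (x axis, colours) under each setting (y axis), with filled points past the threshold of the setting's test. Points lie above 0 except H19 without control 220 and Plagl1 without deletion library 211, and the call of Mest is absent in 5 of 17 alternatives.

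The genes whose levels followed Mest and Meg3 most closely were found from log2 CPM centred on each gene's own mean, by root mean square distance over the 6 libraries, among 14650 genes with a mean log2 CPM of at least 1. The nearest to Mest were Zfp964 (distance 0.0287), Tmem200c (0.0300), Eci2 (0.0301), Selenop (0.0309) and S1pr3 (0.0315). S1pr3, a receptor for sphingosine 1-phosphate, was at 253, 240 and 234 CPM in the controls against 275, 282 and 275 CPM in the deletion group. The nearest to Meg3 were Adam1a (0.0398), Gm7664 (0.0407), Zfp287 (0.0480), Klhl3 (0.0578) and Cacnb1 (0.0579), each with its highest value in library 208. Cacnb1, a subunit of calcium channels, was at 22.2, 22.6 and 20.4 CPM in the controls against 30.2, 27.3 and 23.4 CPM in the deletion group. No other member was among these 10 genes. With 6 libraries and this many genes, near patterns are to be found for almost any gene, and the distances are given as a description.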

How the data were processed

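The submitters' processing notes name the tools STAR 2.4.1d, CASAVA 1.8.2 and Partek, the last without a version, and the build mm10. The counting tool, its annotation and its strand setting were not given in the sources used here. Values in the table the authors deposited are estimated counts (expected counts) per gene symbol, not normalized, of which 23.0% to 23.8% per library are not whole numbers. Columns carry a group word and a number that no label gives, so each was assigned to a group only, and 0 value columns were left unused.

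Counts were rounded, filtered with filterByExpr (minimum count 10, minimum total 15), scaled by TMM and tested with the quasi-likelihood F test of edgeR 4.0.16 (robust=TRUE) in R 4.3.3, deletion against control without covariates, with Benjamini-Hochberg adjustment over all tested genes and a threshold of 0.05. SEs are fold changes divided by the root of F, and intervals are at 95%. The script was tested on simulated data with larger changes than those of the members. That test does not bear on changes of the members' size. Ratios were compared by exact permutation tests. Gene positions and exon lengths come from GENCODE M21 (GRCm38). Libraries of a group differed by more than sampling noise in every pair (chi-square over its degrees of freedom, 7.74 to 37.3).

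The members and gene lists were chosen with earlier results of these data known. Named genes are the members, Prmt1, Igf2, Igf2r, Cdkn1c, for each list at most 4 called genes, those of lowest p, or with no call the 2 of lowest p, neighbouring genes, and the 5 nearest patterns for Mest and Meg3. Not all of them are reported here. Sfmbt2 is named outside this rule, after its values were seen. Alternatives were DESeq2 1.42.0 size factors and Wald test, upper-quartile factors, limma 3.58.1 voom, no filter, a minimum CPM of 1 in 3 libraries, robust=FALSE, embryo sex as a covariate, muscle and erythroid markers left out, and each library left out in turn, to which leaving out both 212 and 213 and a covariate for 220 and 221 were added after seeing the data.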

Additional observations from a re-analysis of the deposited data

How the results depend on the processing

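Over the 17 alternatives the 9 members gave 138 results with the same sign and side of the threshold, 8 newly past it, 5 no longer past it and 2 with the opposite sign. The count of changed genes, 1352, was 2125 with the DESeq2 Wald test, 129 with embryo sex as a covariate, 89 without both 212 and 213, and 356 to 1872 with a single library left out (lowest without 213). The count of members changed, 1, was 3 with the DESeq2 Wald test or with 220 and 221 as a covariate, 0 with the sex covariate or without 212 and 213, and 0 to 4 with a single library left out: 0 without 213, 208 or 211, 2 without 212 and 4 without 221. Mest was at 0.32 with the sex covariate (edgeR adjusted p = 0.0915) and 0.32 without 212 and 213, neither past the threshold. Meg3 (0.34 and 0.33) and Rian (0.27 and 0.26) passed with the DESeq2 Wald test and the covariate for 220 and 221. With a single library left out, log2 fold changes ranged from 0.12 to 0.34 for Dlk1, 0.20 to 0.47 for Meg3, 0.19 to 0.38 for Rian, -0.0032 to 0.17 for H19, 0.10 to 0.29 for Peg3, 0.22 to 0.28 for Mest and -0.035 to 0.16 for Plagl1, and, outside the members, -0.12 to 0.016 for Cdkn1c, -0.17 to 0.043 for Dio3 and -0.0047 to 0.10 for Igf2r. The sex covariate and leaving out 212 and 213 turned the sign of Cdkn1c (0.080 and 0.082) and Dio3 (0.20 and 0.21). A fit without 212 and 213 has a single control, which is assumed to vary like the deletion libraries. Sex, the split in the ratio of Hbb-y to adult globins and the lone control 220 cannot be told apart. No scaling moved the median of all genes by more than 0.01. The cause of these changes was not tested, beyond that fewer libraries enter some fits. No paired analysis was possible because the numbers in the column names are not the replicate numbers of the labels.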
